A study of Mus musculus with 6 samples.

Results

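The Bcl2 family genes were followed in whole fetal livers of the mouse at embryonic day 12.5, from 3 embryos that were Rb null and 3 that were wild type. The family was represented by every probe set that the array annotation assigned to a single gene among 10 named members. These were 15 of the 12422 probe sets, and they covered 9 of the 10 genes: the anti-apoptotic genes Bcl2l1, Bcl2, Bcl2l2 and Mcl1, the pore-forming genes Bak1 and Bok, and the BH3-only genes Bad, Bid and Bcl2l11. Bax, the remaining pore-forming member, had no probe set under a single symbol in the annotation and was not analysed here.

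All embryos were untreated and came from crosses of 129sv mice heterozygous for the retinoblastoma gene. Rb null embryos lacked the gene in every tissue, placenta included, and wild type embryos carried it. The labels do not describe the null allele further. Each liver was taken apart in buffered saline and read on its own Affymetrix array, so n = 3 embryos per genotype throughout. The comparison asks how transcript levels in the liver differ between Rb null and wild type embryos. Values are MAS5 signals, the array maker's summary of a probe set's brightness, and are given per embryo or as mean ± SD. Log2 fold changes are Rb null minus wild type after adding 50.02 to each signal, and they are given ± SE. A probe set was called higher or lower at a limma adjusted p below 0.05 over all 6793 tested probe sets, those with a mean signal above 150.1. The number of arrays limits the precision.

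Proteins of the Bcl2 family decide whether a cell opens its outer mitochondrial membrane and dies. Bcl-xL, made by Bcl2l1, and its relatives Bcl2, Bcl-w and Mcl-1 hold the pore formers Bax and Bak in check, while BH3-only proteins such as Bim, made by Bcl2l11, relay stress signals and block the protectors or activate the pore formers. In the fetal liver, Bcl-xL is known for keeping developing red cells alive, and embryos without it die in mid-gestation with massive death of blood-forming cells in the liver.

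The targeted gene was read first. Rb1 read 136 ± 7.52 in Rb null livers and 750.1 ± 42.3 in wild type livers (-2.10 ± 0.09, limma adjusted p = 7.8e-06). The position of its probes relative to the deleted part is unknown here. The 6 arrays had 2% trimmed means of 500.2, while their median signals ran from 198 to 203 in Rb null livers and from 177 to 187 in wild type livers. The ratio of the 3 prime to the 5 prime control probe set, a sign of RNA quality, lay between 1.19 and 1.31 for actin in Rb null livers and between 1.12 and 1.21 in wild type livers. For Gapdh it lay between 0.829 and 0.888 in Rb null livers and between 0.915 and 0.924 in wild type livers, with no overlap. The part of RNA quality in the results below was not tested.

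Promoter windows of Bcl2l1 and Bcl2l11 are shown because a probe set of each kept its call in every setting in which it was tested. All 10 genes had RefSeq windows of 250 bases before a transcript start, 14 windows in all on mouse build GRCm38.p6. They were searched on both strands for the letters of 4 factor motifs. These were AGATAA or TGATAA for GATA factors, TTCNNNGAA for STAT factors, GTAAACA for FOXO factors, and TTTCGCGC or TTTGGCGC for E2F factors. Only the windows of these genes that held a match are printed, and each held a single match. Their other windows held none. Capitals mark the matches. The first window lies before a Bcl2l1 start at chr2:152828490-152828739 on the minus strand, with a GATA match 41 bases before the start. The second lies before another Bcl2l1 start at chr2:152830718-152830967 on the minus strand, with an E2F match on the reverse strand, 145 bases before the start. The third lies before a Bcl2l11 start at chr2:128125788-128126037 on the plus strand, with a FOXO match 227 bases before the start.
Bcl2l1 start with GATA match: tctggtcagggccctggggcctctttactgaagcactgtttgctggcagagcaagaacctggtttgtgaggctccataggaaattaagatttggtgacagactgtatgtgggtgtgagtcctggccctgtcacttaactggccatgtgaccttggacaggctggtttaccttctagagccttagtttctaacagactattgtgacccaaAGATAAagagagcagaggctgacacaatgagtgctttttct
Bcl2l1 start with E2F match: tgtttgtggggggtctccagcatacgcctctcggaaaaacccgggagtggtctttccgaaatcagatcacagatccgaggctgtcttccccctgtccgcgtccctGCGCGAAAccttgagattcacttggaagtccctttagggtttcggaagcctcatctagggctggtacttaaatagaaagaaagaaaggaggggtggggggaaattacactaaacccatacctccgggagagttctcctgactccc
Bcl2l11 start with FOXO match: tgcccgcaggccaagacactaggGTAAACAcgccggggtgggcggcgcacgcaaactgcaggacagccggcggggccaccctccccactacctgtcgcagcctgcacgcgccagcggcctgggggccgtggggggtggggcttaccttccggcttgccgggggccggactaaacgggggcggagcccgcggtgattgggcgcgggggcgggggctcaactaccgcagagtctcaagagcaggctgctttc

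These were the windows with a match among the 14, 1 each for GATA, FOXO and E2F letters and 0 for STAT letters. Of all 32851 RefSeq windows of the same length, 16.6% held the GATA letters, 7.02% the STAT letters, 3.17% the FOXO letters and 0.654% the E2F letters. A match is a run of letters and not a shown binding site, and the array says nothing about which start was used.

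Of the 15 family probe sets, 12 passed the signal filter and 3 did not. Bcl2l2 and 1 probe set of Bcl2l11 were higher in Rb null livers, the brighter probe set of Bcl2l1 was lower, and the other 9 tested probe sets did not pass the test. The share called over all tested probe sets was 12.8% higher and 9.08% lower, so that 2 of 12 higher and 1 of 12 lower lay near the background. The median log2 fold change was 0.04 over the 12 probe sets and 0.02 over all 6793. The description therefore turns on single members. The same 3 probe sets were the members whose 3 Rb null values all lay beyond the 3 wild type values, a separation that 40% of all tested probe sets showed. With the arrays scaled to equal medians, 26.0% of all calls were upward against 58.4% as deposited, and the family then had 1 probe set higher and 2 lower.

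**Figure D1:**
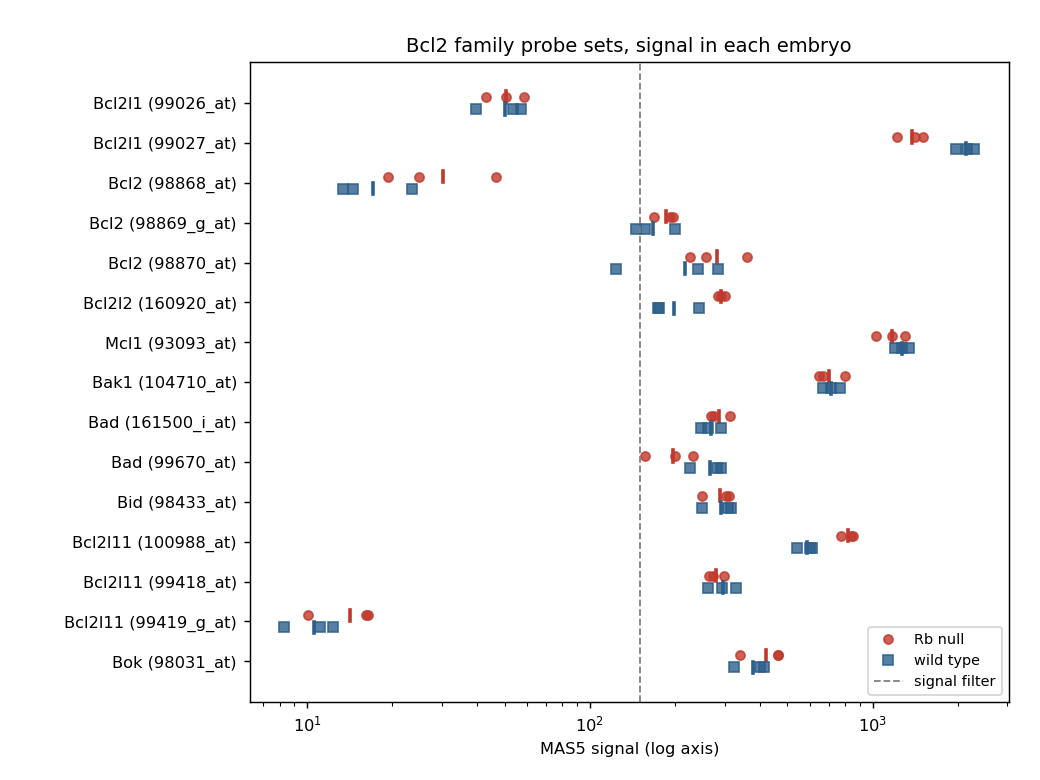
MAS5 signal (log axis) of each of the 15 Bcl2 family probe sets in each embryo, with Rb null embryos as circles, wild type embryos as squares and a short bar at each group mean; the dashed line is the signal filter of 150.1. The genotypes separate on Bcl2l1 99027_at, Bcl2l2 160920_at and Bcl2l11 100988_at, and overlap on the others.

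Bcl2l1, the gene of the red cell survival protein Bcl-xL, had the largest change among the tested probe sets of the 10 named members. On probe set 99027_at the Rb null livers read 1414, 1217.5 and 1503, and the wild type livers read 2153, 1976 and 2291. Every Rb null embryo lay below every wild type embryo. The mean was 1378 ± 146 in Rb null livers against 2140.0 ± 158 in wild type livers, which is 65.1% of the wild type level on the offset scale (-0.62 ± 0.09, 95% interval -0.82 to -0.42, limma adjusted p = 0.0026). The change ranked 40th from the lowest among the 6793 tested probe sets. The call held in all 17 alternative settings in which it was recomputed, each single embryo left out included, with log2 fold changes from -0.75 to -0.54. Probe set 99026_at of the same gene was dim and did not pass the filter, with signals of 50.6, 58.5 and 43.1 in Rb null livers and 53.6, 57.3 and 39.5 in wild type livers. The groups overlapped there, and the labels and annotation do not say which Bcl2l1 transcripts either probe set detects.

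The fall of Bcl2l1 stood beside lower erythroblast markers. Of 9 tested markers of erythroblasts, 7 fell and 2 did not pass, with a median log2 fold change of -0.49. Over all tested genes, 9.5% were called lower. The summed signal of the markers ran from 43534 to 46834 in Rb null livers and from 57014 to 61400 in wild type livers. Klf1, a transcription factor that drives red cell genes, fell by 0.60 ± 0.06 on the log2 scale (limma adjusted p = 4.9e-04), and Rhag, a red cell membrane protein, fell by 0.49 ± 0.05. Of the 7, the globin gene Hbb-b2 (-0.25 ± 0.06) no longer passed after quantile normalization (-0.03, adjusted p = 0.52) or cyclic loess (-0.01, adjusted p = 0.83). Its call also ended with no filter (adjusted p = 0.054) and when Rb null embryo 1 (0.052), wild type embryo 2 (0.055) or wild type embryo 3 (0.064) was dropped. The markers that did not pass were Epor, the erythropoietin receptor (-0.13 ± 0.12), and Tfrc, the transferrin receptor (0.02 ± 0.07). In whole livers, fewer cells of a type and less RNA per cell cannot be told apart, and the part of the erythroblast share in the Bcl2l1 change was not tested. The genes whose log2 values over the 6 arrays were most like Bcl2l1 were Snrpe, Tbc1d24, Mgll, Taldo1 and Lmna, with Pearson r from 0.990 to 0.994. The arrays form a Rb null and a wild type group, so these r values mostly describe the gap between the genotypes. All 5 genes were lower in Rb null livers, a direction that follows from choosing them by their likeness to Bcl2l1. Snrpe, a component of the splicing machinery, fell least (-0.21 ± 0.05). The probe sets of Snrpe, Tbc1d24 and Lmna have names with a suffix letter, and such probe sets were dropped in an alternative setting.

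Bcl2l2, the gene of the protector Bcl-w, was higher in Rb null livers. Its probe set read 283.6, 290.1 and 301.6 in Rb null livers and 243.8, 174.9 and 176.2 in wild type livers. The Rb null values lay close together and above all wild type values, of which embryo 1 was the highest. The mean rose to 292 ± 9.12 from 198 ± 39.4, or 1.39-fold on the offset scale (0.47 ± 0.13, 95% interval 0.18 to 0.76, limma adjusted p = 0.031). This call was the least steady of the 3. It ended when any single embryo other than wild type embryo 1 was dropped, where adjusted p values ran from 0.077 to 0.093. Quantile normalization (0.37, adjusted p = 0.078), cyclic loess (0.36, adjusted p = 0.077), median scaling (0.36, adjusted p = 0.066) and testing without the signal filter (adjusted p = 0.071) ended it too.

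Mcl1, the gene of a short-lived protector needed by blood stem cells, did not pass the test. It read 1172, 1303 and 1033 in Rb null livers and 1341, 1197 and 1273 in wild type livers. The groups overlapped, and the log2 fold change was -0.12 ± 0.09 with a 95% interval from -0.32 to 0.08.

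Bcl2 itself, the founding member and best known in lymphocytes, was measured by 3 probe sets, and all were dim. Probe set 98870_at read 257.9, 226.9 and 359.8 in Rb null livers and 241.8, 123.5 and 285.3 in wild type livers (0.35 ± 0.25). The wild type embryos spread more than the distance between the genotype means. Probe set 98869_g_at read 186 ± 14.9 against 168 ± 28.2 (0.12 ± 0.13). Probe set 98868_at did not pass the filter, with signals from 19.4 to 46.5 in Rb null livers and from 13.4 to 23.6 in wild type livers. The 95% interval of the 98870_at change reached from -0.22 to 0.92, which leaves a sizeable change in either direction unresolved.

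Of the pore formers, neither measured gene passed the test. Bak1, whose protein opens the outer mitochondrial membrane together with Bax, read 797.0, 648.4 and 667.5 in Rb null livers and 713.5, 765.0 and 666.4 in wild type livers. The groups overlapped throughout, and the log2 fold change was -0.02 ± 0.09 (95% interval -0.24 to 0.19). Bok, a relative that can form pores by itself, read 461.9, 462.8 and 340.4 in Rb null livers and 399.5, 414.1 and 324.5 in wild type livers. Embryo 3 was the lowest of each genotype, and the log2 fold change was 0.13 ± 0.13 (95% interval -0.18 to 0.44).

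Bcl2l11, which encodes the BH3-only protein Bim, rose on its brightest probe set. On 100988_at the Rb null livers read 774.8, 850.7 and 840.4, and the wild type livers read 601.1, 540.2 and 611.5. Every Rb null embryo lay above every wild type embryo. The mean rose from 584 ± 38.5 to 822 ± 41.2, or 1.38-fold on the offset scale (0.46 ± 0.08, 95% interval 0.29 to 0.63, limma adjusted p = 0.0048). The call held in all 17 alternative settings in which this probe set was tested by itself, with log2 fold changes from 0.33 to 0.50. An average of the Bcl2l11 probe sets was not among these settings.

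The other Bcl2l11 probe sets did not show this rise. Probe set 99418_at read 299.4, 272.5 and 263.5 in Rb null livers and 262.6, 330.1 and 293.0 in wild type livers. The groups overlapped (-0.07 ± 0.11), and the 95% interval from -0.31 to 0.17 lay below that of 100988_at. Probe set 99419_g_at did not pass the filter, with signals from 10.1 to 16.4 in Rb null livers and from 8.3 to 12.4 in wild type livers. Bcl2l11 makes several transcripts, and the annotation does not say which of them each probe set detects.

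**Figure D2:**
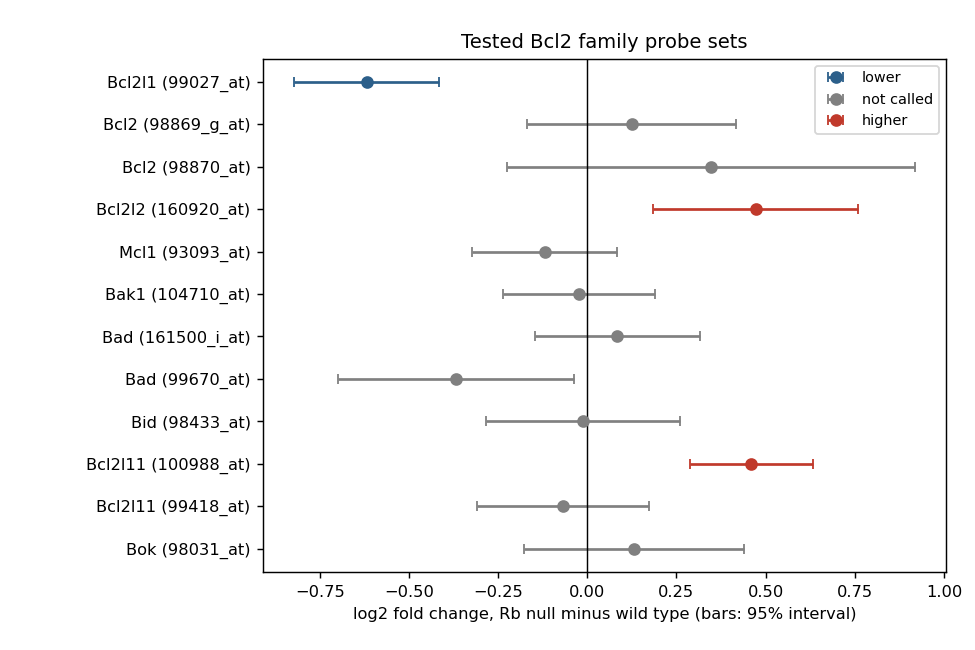
Log2 fold change (Rb null minus wild type) with its 95% interval for the 12 tested Bcl2 family probe sets. Only Bcl2l1 99027_at was called lower, at -0.62, and Bcl2l2 160920_at and Bcl2l11 100988_at were called higher, at 0.47 and 0.46.

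Bad, a BH3-only protein that growth factor signalling keeps inactive, gave probe sets of opposite sign, and neither passed the test. Probe set 99670_at read 157.0, 231.8 and 200.4 in Rb null livers and 292.2, 282.5 and 225.8 in wild type livers (-0.37 ± 0.14, limma adjusted p = 0.10). A single Rb null embryo, embryo 2, lay above the lowest wild type embryo. After median scaling, which moved the median of all tested probe sets from 0.02 to -0.10, the change was -0.48 and passed (adjusted p = 0.035). Probe set 161500_i_at read 287 ± 24.4 against 268 ± 22.2 (0.08 ± 0.10), and its sign turned after median scaling, quantile normalization and cyclic loess.

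Bid, the BH3-only protein that links death receptors to mitochondria, did not pass the test. It read 250.3, 311.0 and 302.9 in Rb null livers and 249.9, 308.6 and 315.5 in wild type livers. Embryo 1 was the lowest of each genotype, and the log2 fold change was -0.01 ± 0.12 with a 95% interval from -0.29 to 0.26.

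**Figure D3:**
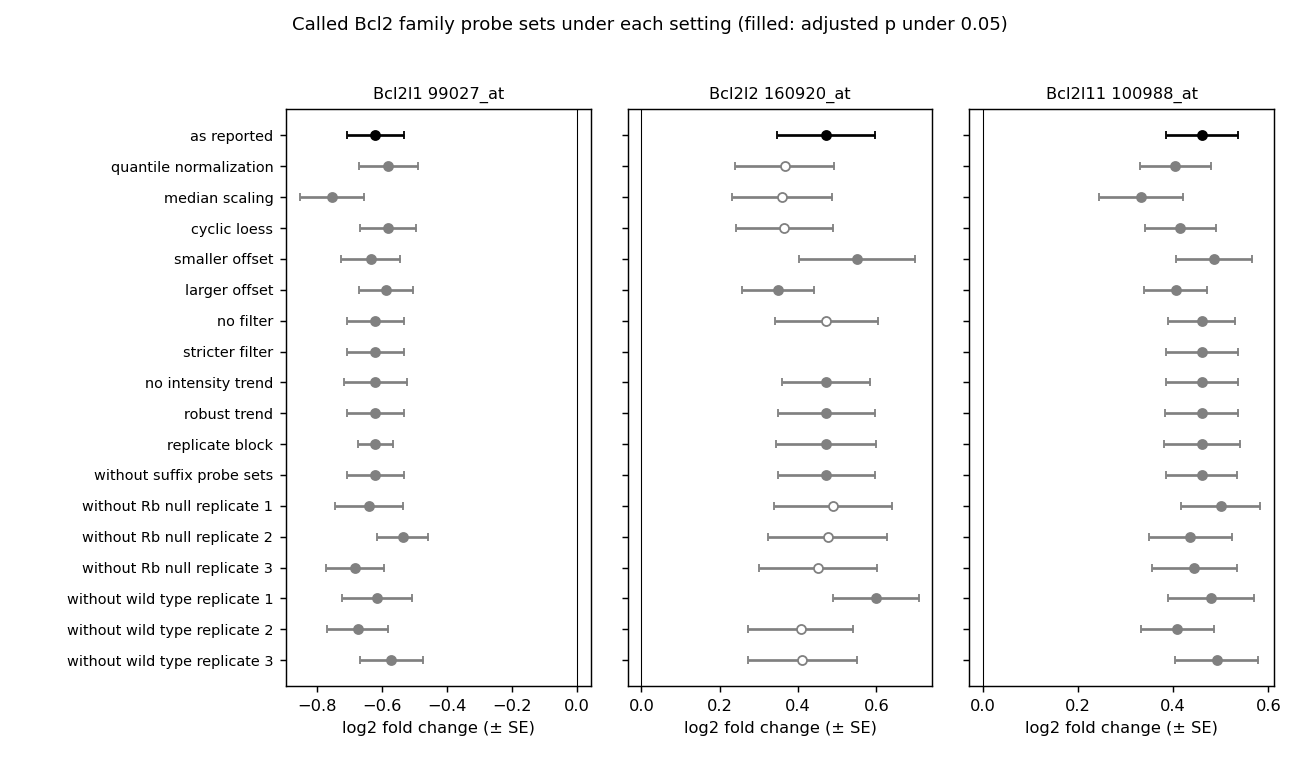
Log2 fold change ± SE of the 3 called Bcl2 family probe sets as reported and under each alternative setting that tests single probe sets. Filled points passed an adjusted p of 0.05, open points did not, and a missing point was removed by the filter. Bcl2l1 and Bcl2l11 stay filled throughout, while Bcl2l2 is open under 9 settings.

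Around these members, 4 lists held other genes of the pathway: further Bcl2 family genes, genes acting downstream of the mitochondrial pore, genes of mitochondrial channels and shape, and regulators of the family. Of their 73 genes, 52 had a probe set of their own and 41 were tested. In Rb null livers 6 rose, 4 fell and 31 did not pass, against a background of 13.1% of genes called higher and 9.5% called lower. The median log2 fold change was 0.00 over the 41 genes and 0.02 over all tested genes.

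Of the further family genes, 3 were tested and 1 rose. Bnip3, a mitochondrial protein of mitophagy and cell death that low oxygen induces, read 998.7, 1051 and 1256 in Rb null livers. The wild type mean was 402 ± 31.4, which all Rb null values exceeded (1.35 ± 0.10, limma adjusted p = 1.8e-04). Bcl2l13, a mitophagy receptor, read 2236 ± 179 against 1973 ± 236 (0.18 ± 0.10). Bcl2l10 was dim, at 163.8, 170.9 and 110.1 in Rb null livers and 126.2, 121.3 and 270.3 in wild type livers (-0.12 ± 0.25). Wild type embryo 3 stood apart from the rest. The other Bcl2l10 probe set did not pass the filter, at 78.5 ± 0.49 against 87.1 ± 17.3. The BH3-only genes Bik and Hrk stayed below the filter, with means of 62.6 and 43.8 in Rb null livers and 38.4 and 33.7 in wild type livers.

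Downstream of the pore, 8 genes were tested, of which 2 rose and 1 fell. Apaf1, which assembles with cytochrome c into the caspase-activating apoptosome, read 610.3, 606.3 and 617.1 in Rb null livers. The wild type mean was 442 ± 37.9, below all of them (0.43 ± 0.08, limma adjusted p = 0.0082). The executioner caspase gene Casp6 rose to 309 ± 11.4 from 229 ± 23.3 (0.37 ± 0.10, adjusted p = 0.031), a call that ended when any single embryo other than wild type embryo 2 was dropped (adjusted p values from 0.073 to 0.092). The Casp6 call also ended after quantile normalization, cyclic loess and median scaling and without the filter. Aifm1, a mitochondrial flavoprotein that can move to the nucleus in dying cells, fell by 0.21 ± 0.05 (adjusted p = 0.027), a call that ended when Rb null embryo 1 (adjusted p = 0.089), Rb null embryo 2 (0.064), wild type embryo 2 (0.061) or wild type embryo 3 (0.094) was dropped. The Aifm1 call also ended after quantile normalization (-0.14, adjusted p = 0.090) and cyclic loess (-0.15, adjusted p = 0.074) and without the intensity trend (adjusted p = 0.061). Cycs, the cytochrome c gene, read 484 ± 52.3 against 566 ± 39.2 (-0.21 ± 0.09) and did not pass. Casp9, the caspase that Apaf1 activates, had a change of 0.04 ± 0.09.

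Of the 8 tested genes of mitochondrial channels and shape, 0 passed limma after adjustment and 2 had an unadjusted p below 0.05, with a median log2 fold change of 0.02. These 2 were Phb2, a prohibitin of the inner membrane (-0.26 ± 0.10), and Mfn1, which fuses mitochondria (0.21 ± 0.09). Vdac2, a channel of the outer membrane that binds Bak, had a change of 0.12 ± 0.08.

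Among 22 tested regulators of the family, 3 rose, 3 fell and 16 did not pass. Ier3, an early response gene tied to Mcl-1, rose from 183 ± 8.68 to 356 ± 16.2 (0.80 ± 0.09, limma adjusted p = 9.9e-04). Ddit3, a stress transcription factor known to raise Bim, rose from 283 ± 18.5 to 395 ± 6.57 (0.42 ± 0.08, adjusted p = 0.011). The dynein light chain genes moved apart. Dynll2, whose product holds the BH3-only protein Bmf, rose on its brighter probe set from 413 ± 8.76 to 630 ± 47.0 (0.55 ± 0.08), while its other probe set read 264 ± 52.0 against 256 ± 106 (0.08 ± 0.23), and their average did not pass (0.31, adjusted p = 0.098). Dynll1, whose product holds Bim, fell by 0.28 ± 0.06 (adjusted p = 0.013), a call lost after quantile normalization (adjusted p = 0.081) and cyclic loess (-0.08, adjusted p = 0.26).

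The kinase gene Pim1, a target of cytokine signalling that inactivates Bad, fell by 0.33 ± 0.09 (limma adjusted p = 0.029) on its brighter probe set and read -0.07 ± 0.07 on the other. Its call ended when Rb null embryo 1 (adjusted p = 0.082), Rb null embryo 2 (0.079), wild type embryo 2 (0.056) or wild type embryo 3 (0.093) was dropped. Quantile normalization and cyclic loess (-0.20 and adjusted p = 0.086 in each), averaging both probe sets (adjusted p = 0.067), no filter (0.063) and no intensity trend (0.056) ended the Pim1 call as well. Gata1, an erythroid factor known to act on Bcl2l1, fell by 0.25 ± 0.06 (adjusted p = 0.025) on its brighter probe set, while the other read 0.18 ± 0.11 and did not pass. Its call ended when Rb null embryo 2 (adjusted p = 0.063), Rb null embryo 3 (0.061), wild type embryo 1 (0.071) or wild type embryo 3 (0.074) was dropped. Averaging both Gata1 probe sets ended it too (-0.04, adjusted p = 0.79). Of the erythropoietin pathway that sustains Bcl-xL, Epor (-0.13 ± 0.12), Jak2 (-0.02 ± 0.09), Stat5a (-0.14 ± 0.09) and Stat5b (0.43 ± 0.14, adjusted p = 0.062) did not pass. Foxo3, a factor known to raise Bim, had a change of -0.20 ± 0.08 (adjusted p = 0.11), and E2f1, a factor that Rb restrains, one of -0.05 ± 0.08.

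**Figure D4:**
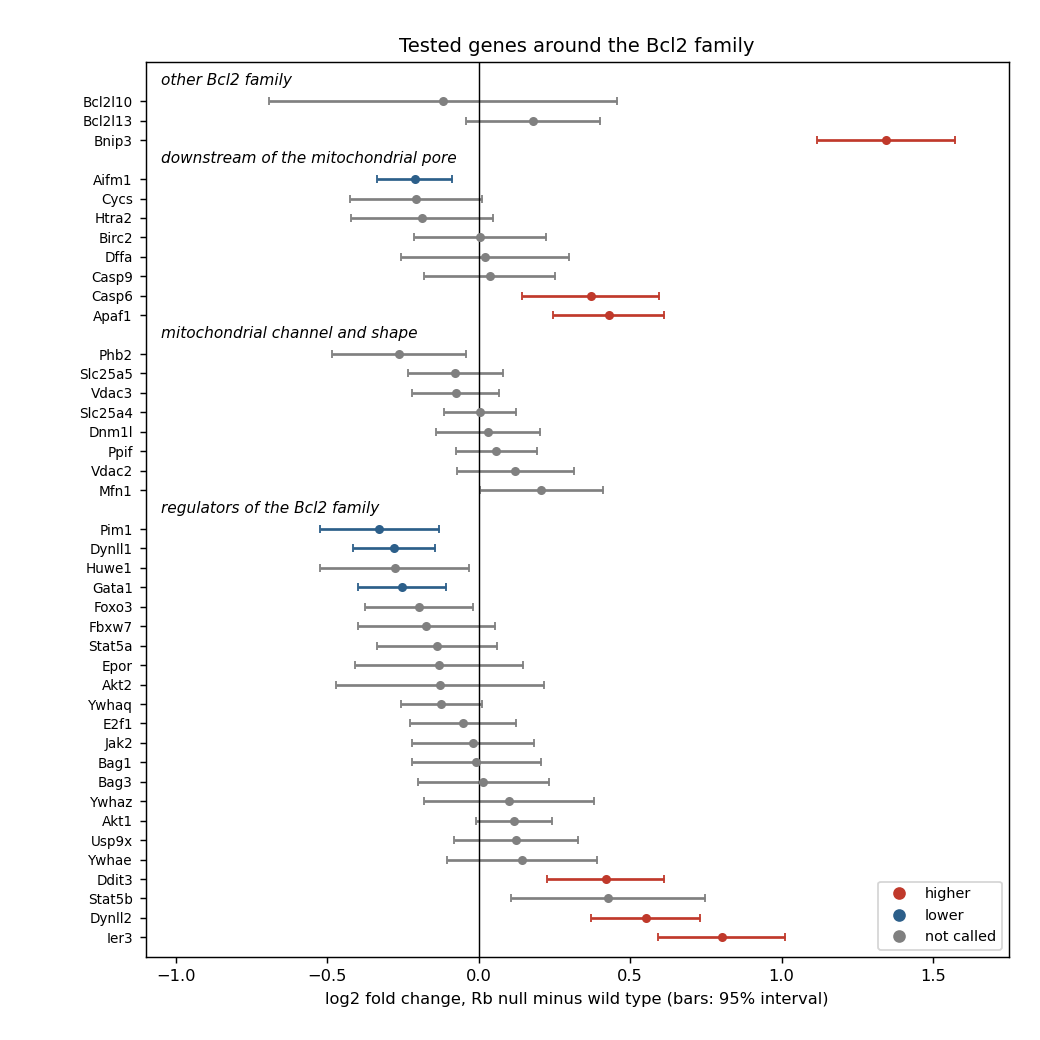
Log2 fold change (Rb null minus wild type) with its 95% interval for the 41 tested genes of 4 lists around the Bcl2 family, sorted within each list, red where called higher, blue where called lower and grey otherwise. Bnip3 stands farthest right at 1.35, and most other genes cross 0.

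Some markers of other liver cells were also higher in Rb null livers, while others did not pass. Of tested markers, 3 of 4 megakaryocyte, 5 of 8 granulocyte, 3 of 8 macrophage, 3 of 8 endothelial and 5 of 7 mesenchyme genes were higher in Rb null livers, and the others did not pass. Over all tested genes, 13.1% were called higher and 9.5% lower. Summed signals of each of these lists, untested markers included, did not overlap between genotypes. Among single tested probe sets, 40% showed such a separation in either direction, and no such share was computed for sums over a list. The sums were 2557 to 2984 in Rb null against 1539 to 1641 in wild type livers for megakaryocytes. They were 11794 to 11903 against 9079 to 9190 for granulocytes, and 5558 to 6032 against 4940 to 5213 for macrophages. For endothelium they were 4890 to 5363 against 4066 to 4281, and for mesenchyme 11599 to 12488 against 9138 to 9261. The defining markers Pf4 of megakaryocytes, Pecam1 of endothelium and Ctsg of granulocytes read below 60 on average in both genotypes. Among macrophage markers, Csf1r, Lyz2 and Vcam1 passed, while Cd68, C1qa, C1qb, C1qc and Mrc1 did not. Adgre1 stayed below the filter, with overlapping signals of 119.0, 238.1 and 131.1 in Rb null livers and 106.6, 204.0 and 60.2 in wild type livers. Marco, a macrophage marker below the filter, went the other way, with signals of 104.9, 93.2 and 66.0 in Rb null livers and 155.5, 176.5 and 162.4 in wild type livers, which did not overlap (-0.65 ± 0.15, limma adjusted p = 0.039 when fitted without the filter). Of 9 hepatoblast markers, 1 rose, 2 fell and 6 did not pass, with a median log2 fold change of 0.15. Hnf4a rose from 224 ± 29.9 to 335 ± 7.02 (0.49 ± 0.11). Alb, the albumin gene, fell to 13754 ± 258 from 15834 ± 825, and Apoa1 fell by 0.31 ± 0.07. The summed hepatoblast signals overlapped, at 38359 to 40897 in Rb null and 40807 to 44257 in wild type livers. The part of these cell types in the Bcl2l11 and Bcl2l2 rises was not tested.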

How the data were processed

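RNA of 6 embryonic livers was read on 1 Affymetrix mouse array each. Per the labels, the authors computed MAS5 signal intensity values, with version and scaling target not given in the sources used here. The deposited intensity values are linear, and their equal 2% trimmed means (500.2) show a common scaling. Probe sets were named by the platform annotation. Of those with a single name, 10817 matched a RefSeq table of GRCm38.p6 by gene identifier, with no symbol changed. Of 12488 probe sets, 66 were controls. Signals were taken to log2 after adding 50.02, which is 0.1 of the trimmed mean, and the test covered probe sets whose mean signal exceeded 150.1, or 0.3 of it. It was run with limma 3.58.1 in R 4.3.3, with an intensity trend and Benjamini-Hochberg adjustment. The procedure was also run on simulated data with independent noise and as many raised as lowered probe sets. That simulation does not address the scaling of the arrays. For each listed gene the brightest probe set on average was used. Named were all members, from each list the 3 called genes at most that changed most in each direction, all measured further family genes, and the 5 genes most like Bcl2l1. Genes named beyond that, such as Cycs, Casp9, Vdac2, Phb2, Mfn1, the erythropoietin pathway, Foxo3, E2f1 and single markers, were chosen after their values were seen. Members, lists and motifs were chosen with earlier results of these data known. Alternatives were quantile, cyclic loess and median scaling, other offsets, filters and variance models, the replicate number as a block, the mean of a listed gene's probe sets, dropping probe sets whose name carries a suffix letter (s, f, r, g, i), and leaving out each embryo. A single gene name stood for 10833 probe sets, several for 396, none for 1193.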

Additional observations from a re-analysis of the deposited data

How the results depend on the processing

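Over 12 tested family probe sets and up to 17 alternatives each, 174 of 194 values kept their sign and side of the threshold. The family count of 2 higher became 1 after quantile normalization, cyclic loess and median scaling, without the filter and with the stricter filter, and 1 to 2 with single embryos left out. The stricter filter kept 4 family probe sets and removed that of Bcl2l2. The count of 1 lower became 2 after median scaling. The 6 higher pathway genes became 3 with the stricter filter, and 5 to 6 with single embryos left out. Casp6, Ier3 and Ddit3 lay below the stricter filter of 500.2 and were not tested there. Ier3 and Ddit3 kept their calls in every alternative that tested them. The 4 lower pathway genes became 1 after quantile normalization and cyclic loess, 11 after median scaling, 2 without the intensity trend, and 1 to 4 with single embryos left out (1 without Rb null embryo 2 or wild type embryo 3, 2 without Rb null embryo 1 or wild type embryo 2). The sign of Bad 161500_i_at turned after quantile normalization (-0.021), median scaling (-0.032) and cyclic loess (-0.018). With single embryos left out, Bak1 ran from -0.11 to 0.029, Bid from -0.10 to 0.070 and Bcl2l11 99418_at from -0.14 to 0.0030. The cause was not tested.

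A pairing of embryos by replicate number was not shown: deviations from the group means correlated at -0.06, 0.05 and 0.27 for numbers 1, 2 and 3. With the replicate block, the family had 2 probe sets higher and 1 lower, and the pathway 5 genes higher and 5 lower, where Casp6 no longer passed (adjusted p = 0.051). Without detection calls in the data used here, dim probe sets limit what can be said of Bcl2, Bcl2l2, Bad, Bid, Bcl2l10, Bik and Hrk.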

Other observations

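Further family genes were read only by probe sets that name several genes, so they entered no count of the report. The probe set of Bnip3l, a mitophagy receptor that clears mitochondria from maturing red cells, also names a pseudogene of it. It read 2014, 2230.3 and 2075 in Rb null livers and 2248, 2393 and 2412.5 in wild type livers. All Rb null values lay below all wild type values, but the change of -0.16 ± 0.06 did not pass the test (limma adjusted p = 0.099), in the same livers in which Bnip3 rose by 1.35 ± 0.10. The protector genes of the Bcl2a1 cluster, known from granulocytes, shared 3 probe sets. Probe set 102914_s_at, which also names Mthfs, read 243 ± 103 in Rb null livers and 205 ± 30.4 in wild type livers (0.15 ± 0.23), and the other probe sets had means below 90 in both genotypes.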
